A study of Mus musculus with 9 samples.

Results

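Arntl, Clock and Npas2 encode the activating arm of the circadian clock, and PPARγ binding around these genes was followed over the day in murine interscapular brown adipose tissue (iBAT). Of 66066 PPARγ peaks in the deposited count matrix, 24 had their midpoint within 3 windows that hold the genes with their flanks. The Arntl window (chromosome 7, 113180000 to 113340000, mm10) held 15 peaks, the Clock window (chromosome 5, 76190000 to 76330000) held 1, and the Npas2 window (chromosome 1, 39170000 to 39390000) held 8. The tissue came from chow-fed male C57BL/6J mice aged 10 weeks, killed every 3 h from Zeitgeber time (ZT) 0, lights on, to ZT21, with the dark phase starting at ZT12. The labels describe each time point as 1 pool of 8 mice, immunoprecipitated with an antibody to PPARγ and sequenced as 1 library. No time point was therefore replicated, and an uneven pool cannot be told apart from an effect of time.

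The product of Arntl, BMAL1, pairs with CLOCK or with its paralog NPAS2, and the pair binds E-box sequences to switch on the Per, Cry and Nr1d genes. The proteins made from those targets close the loop: PER and CRY proteins inhibit the pair, while the REV-ERB receptors (Nr1d1, Nr1d2) repress Arntl and also Clock and Npas2 through ROR elements, on which the ROR receptors activate. PPARγ, the nuclear receptor that directs the adipocyte gene program, binds with RXR to DR1 elements, which are a pair of AGGTCA half-sites spaced by 1 base.

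Motifs were searched on both strands of the GRCm38.p6 genome, the mm10 build, under each peak. The searches covered the DR1 (up to 2 mismatches among its 12 fixed bases), the E-box CACGTG, the D-box TTATGTAA and an exact ROR element, AANT directly followed by AGGTCA. The ROR element contains a DR1 half-site, so that these 2 searches can overlap. An exact ROR element lay under 5 of the 24 peaks, 2 at Arntl and 3 at Npas2. Among all 66059 peaks on searchable chromosomes 1.64% held one, and among peaks within 10% of the length of each of these 5 the share was 1.4% to 2.77%. All 5 peaks passed the 24-h cosine test described below, as did 12 of the 19 peaks without a match. The 5 sequences are shown with 10 bases on either side and the element in capitals, because this was the motif whose share here stood furthest above its share among peaks of like length, which is given as a description.
Arntl start site, chr7:113207528-113207557, plus strand: ggaaggcagaAAGTAGGTCAgggacggagg
Arntl intron 2, chr7:113250940-113250969, minus strand: ggtcaaacaaAAGTAGGTCAgctgtcaaca
Npas2 upstream, chr1:39191894-39191923, minus strand: ctccccagtaAAGTAGGTCAttctctttat
Npas2 intron 3, chr1:39288571-39288600, plus strand: aaattactcaAACTAGGTCAgtgccacaga
Npas2 intron 7, chr1:39318100-39318129, plus strand: gtatggttccAAATAGGTCAccctcagcaa
The first 3 of these share the core AGTAGGT. A search for that core alone, added after the sequences had been seen, found it under 6 of the 24 peaks, against 10.9% of all peaks and 9.42% to 26.4% of peaks of the same length as these 6.

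RefSeq gives 2 overlapping Arntl promoters (GRCm38.p6, 250 bases before a start and 50 after). That of NM_007489.4, the transcript used here for positions (chr7:113207215-113207514), held the core at 1 place and no exact element, which lies after its end. The window of the other start (chr7:113207261-113207560, plus strand) is shown because it reaches the element under the peak. It held the core at 2 places, both in capitals, the second of them inside the exact element.
Arntl promoter, second start: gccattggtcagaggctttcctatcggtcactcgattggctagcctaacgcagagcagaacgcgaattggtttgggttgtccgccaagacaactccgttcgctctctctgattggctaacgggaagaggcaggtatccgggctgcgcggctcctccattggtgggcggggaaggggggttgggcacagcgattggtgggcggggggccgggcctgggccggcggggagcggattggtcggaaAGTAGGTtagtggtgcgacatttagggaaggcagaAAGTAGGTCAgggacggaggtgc
Of 32851 RefSeq promoters of this length, 0.219% held an exact ROR element and 2.46% the core.

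DR1 matches lay under 6 of the 24 peaks, where 22.3% to 48.9% of peaks of the same length held one. They are shown for the Clock peak, which matched with 1 mismatch, and for the start-site and intron 2 peaks of Npas2, which each matched with 2, with the match in capitals.
Clock start site, chr5:76303606-76303638, plus strand: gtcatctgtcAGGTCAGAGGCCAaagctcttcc
Npas2 start site, chr1:39193998-39194030, plus strand: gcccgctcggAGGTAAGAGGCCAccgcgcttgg
Npas2 intron 2, chr1:39268566-39268598, plus strand: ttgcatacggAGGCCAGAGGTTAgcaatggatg
The E-box lay under 5 peaks, where 19.4% to 38.7% of peaks of the same length held one, and the D-box under 1. These are matches to letters in the reference genome, and they were not tested for binding.

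Library totals ran from 29572225 reads in peaks at ZT18 to 34264812 at ZT6. Counts are given as normalized counts: reads in the peak, divided by the library total and its trimmed-mean (TMM) factor and multiplied by the median library total. Where 8 values are listed they follow the collection times, ZT0, ZT3 and so on to ZT21. The TMM factors ran from 0.959 at ZT6 to 1.04 at ZT18, and scaling by library totals alone raised ZT18 over ZT6 by 0.11 on the log2 scale. The 10% of peaks with the most reads, picked in each library, took 44.5% of reads at ZT18 and 48.3% at ZT6. The part of this difference in the results was not tested. Peaks lay nearest to the start sites of 5 of 6 brown adipocyte markers (Ucp1 8, Cidea 4, Ebf2 15, Dio2 18, Elovl3 4, Prdm16 0) and of 4 of 4 general adipocyte markers. Of the markers of muscle, macrophages and endothelium, Ckm, Myh4, Adgre1 and Cd68 had 0 peaks, Acta1 and Ptprc had 1 each, Pecam1 had 5 and Cdh5 had 9. The liver genes Alb and Apoa1 had 1 and 17. Summed per gene, 2 of the other-cell markers passed the 24-h cosine described below, both with fitted times near those of Npas2: the endothelial gene Cdh5 (1580 to 2415 normalized counts, 1.44-fold, 23.9 h, adjusted p = 0.00864, edgeR) and the muscle gene Acta1 (325 to 495, 1.47-fold, 23.5 h, adjusted p = 0.0304, edgeR). Pecam1, the other endothelial marker, peaked at 4.82 h and did not pass (adjusted p = 0.1, edgeR), and Ckm and Myh4 had no peak. Of the adipocyte markers, Ucp1, Cidea, Dio2, Plin1, Fabp4 and Cidec passed, with fitted times from 5.98 h (Fabp4) to 8.81 h (Dio2). The part of other cell types in the results was not tested. Since whole tissue was used, more cells with PPARγ at a site and more PPARγ per cell cannot be told apart.

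Across the 24 peaks, binding was highest between the middle of the dark phase and lights on in 22, at ZT18 (10), ZT21 (1) or ZT0 (11). It was lowest between ZT6 and ZT15 in 21. The shares of all peaks with the same highest or lowest libraries were not counted, so these counts describe the 24 only. The order in time was tested with JTK-cycle, a rank test against cosines of 21 and 24 h whose exact P is adjusted over 15 combinations of period and phase. It called 9 of the 24 peaks at an adjusted P under 0.05 (Arntl 6, Clock 0, Npas2 3), against a background of 11.6% of all peaks. This P is not adjusted over peaks; after Benjamini-Hochberg adjustment over all 66066 peaks the smallest value was 0.0968 and 0 peaks passed. A 24-h cosine fitted to the counts by the quasi-likelihood test of edgeR, with Benjamini-Hochberg adjustment over all peaks, called 17 of the 24 (Arntl 11, Clock 0, Npas2 6), against 13.4% of all peaks. All 9 JTK calls were among these 17. Without ZT18, the omission that left the fewest calls, 13 of the 24 and 3067 of all peaks passed. In 16 of the 17 the fitted time of highest binding fell between ZT18 and ZT24, a class that held 15.1% of the 8842 called peaks and 2.02% of all peaks.

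**Figure D1:**
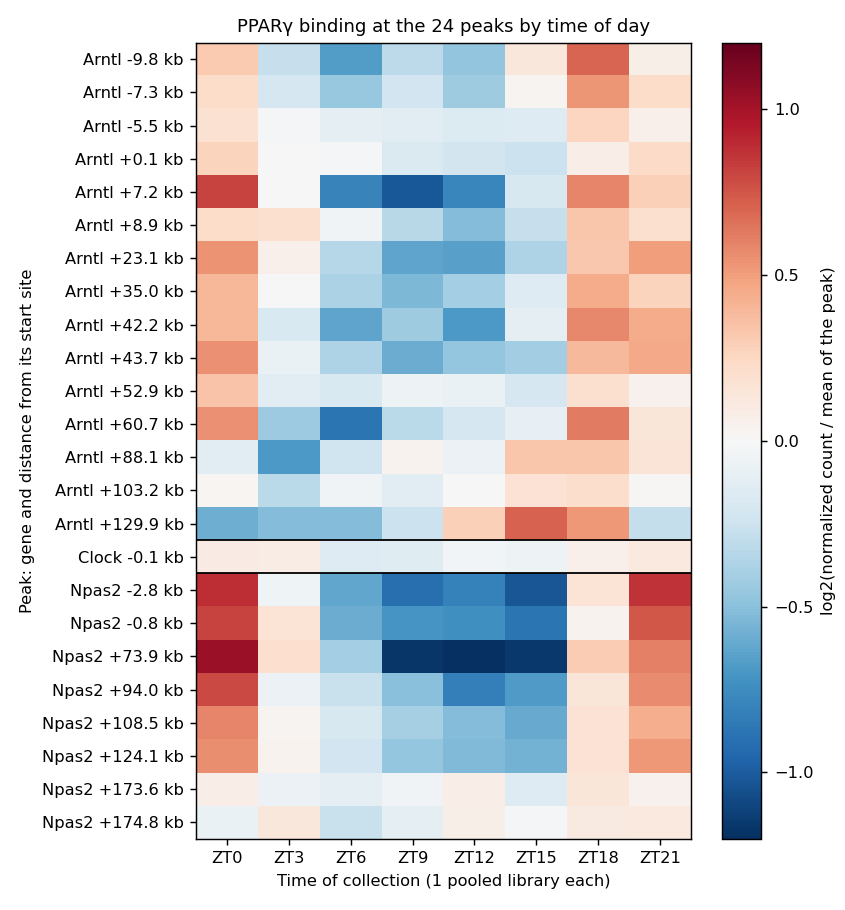
Heat map of PPARγ binding at the 24 peaks (rows, named by gene and by the distance of the peak centre from the RefSeq start site in kb) in the 8 libraries (columns). Colour gives log2 of the normalized count over the mean of that peak, red above and blue below. The Npas2 peaks up to +124.1 kb and the Arntl peaks up to +60.7 kb are red at ZT18 and ZT0 and blue at ZT9 and ZT12, the Clock row is nearly white, and the Arntl peak at +129.9 kb is red at ZT12 to ZT18.

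The highest library exceeded the lowest by a median of 2.19-fold over the 24 peaks, where the median of all peaks was 1.52-fold. The fitted log2 amplitude (from the mean to the top of the cosine) had a median of 0.54, against 0.17 over all peaks. The 95% Wilson intervals of the highest and the lowest library, which cover counting error only, were apart in all 24 peaks. This includes peaks that neither test called. The highest and lowest were picked out of 8 libraries, and the share of all peaks with intervals apart was not counted. This count therefore does not set the 24 off from other peaks.

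**Figure D2:**
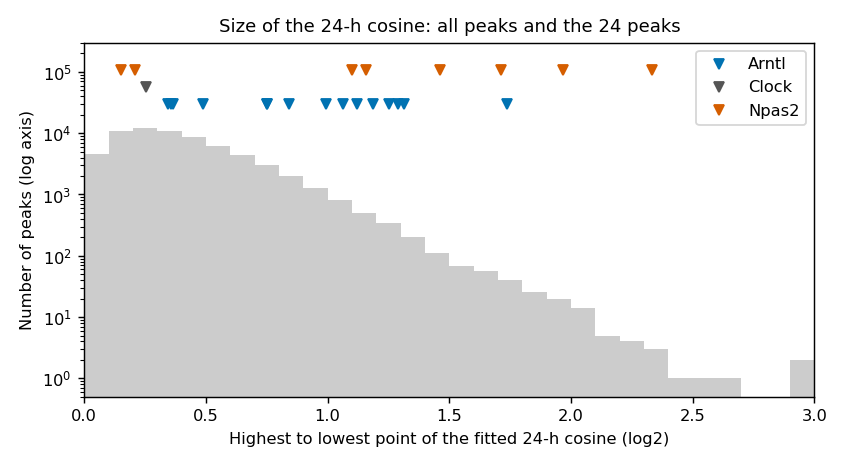
Histogram of the size of the fitted 24-h cosine in all 66066 peaks (grey bars, log axis), as the log2 difference between the highest and lowest point of the curve, with 1 triangle per peak of the Arntl, Clock and Npas2 windows above it (the height of the triangles only separates the genes). The Npas2 triangles lie at 2 ends, with 6 at 1.10 or above and the pair next to Rpl31 at 0.21 or below, and the Clock triangle lies at 0.26.

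Arntl spans 106.662 kb on the plus strand (113207465 to 113314126, 20 exons in NM_007489.4). Its 12 peaks from upstream to intron 2 were highest at ZT18 or ZT0 and lowest between ZT6 and ZT15. The 3 further downstream were lowest at ZT3 or ZT0, and 2 of them were also highest at ZT18. The peak over the start site and exon 1 (113206520 to 113208710), which contains the ROR element and promoter shown above, held 1300.2, 1082, 1065, 959, 930.4, 906, 1145 and 1272 normalized counts from ZT0 to ZT21. Binding there was lowest in the early dark phase and highest around lights on. The fitted curve peaked at 23.2 h ± 0.81 (SE) and spanned 1.40-fold from lowest to highest (adjusted p = 0.0192, edgeR), the shallowest cosine among the 11 called peaks of this gene. The call ended when ZT0, ZT12, ZT18 or ZT21 was left out (adjusted p up to 0.0559, edgeR), and JTK gave an exact adjusted P of 0.0826.

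Upstream of Arntl lay 3 peaks. The farthest, at −9.83 kb from the start (113197182 to 113198092), held 231, 153, 117, 149.7, 134, 204, 302 and 195 normalized counts from ZT0 to ZT21. The next, at −7.29 kb (113199705 to 113200638), held 214, 159.9, 134, 157, 137, 188, 266 and 214 from ZT0 to ZT21. Both were highest at ZT18 and lowest at ZT6, with fitted spans of 2.09-fold and 1.79-fold (adjusted p = 0.0154 and 0.0202, edgeR). Both cosine calls were lost without ZT6 or without ZT18 (adjusted p up to 0.104 and 0.108, edgeR). The third, at −5.51 kb (113201031 to 113202877), had more reads per kb and was flatter, with 1081, 943, 881, 872, 849.7, 856, 1139.8 and 994 normalized counts from ZT0 to ZT21. It did not pass (adjusted p = 0.101, edgeR; exact adjusted JTK P = 0.212), although scaling by library totals gave an adjusted p of 0.0474 in edgeR.

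Intron 1 of Arntl carried 3 peaks, all with fewer reads per kb than the start-site peak and all called by the cosine. At +7.2 kb (113214104 to 113215199) the peak held 304, 174, 99.5, 85.7, 101, 151, 259.8 and 212 normalized counts from ZT0 to ZT21. This was the steepest course of the gene, with a fitted span of 3.34-fold, or 1.74 ± 0.22 (SE) on the log2 scale, around a peak at 21.4 h ± 0.49 (adjusted p = 0.00125, edgeR). Only 98 of the 66066 peaks had a larger fitted amplitude. The neighbour at +8.9 kb (113215976 to 113216798) held 334, 327, 277, 226, 199, 236, 359 and 327 normalized counts from ZT0 to ZT21. It contained the 1 D-box match, spanned 1.68-fold (adjusted p = 0.022, edgeR) and lost its call without ZT9, ZT12 or ZT15 (adjusted p up to 0.0939, edgeR). At +23.1 kb (113230057 to 113231141) the counts were 197, 142, 107, 87.6, 86.8, 105, 169.8 and 193 from ZT0 to ZT21. Here the time order was nearly that of a cosine (exact adjusted JTK P = 0.00595; span 2.44-fold), and both tests called the peak whichever library was left out.

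Intron 2 held 5 peaks, including the 2 of the gene with the most reads per kb. At +35.0 kb (113241641 to 113243254, 747 normalized counts per kb) binding was 1588, 1210.5, 926, 830.2, 907, 1079, 1645 and 1453 normalized counts from ZT0 to ZT21. Strong binding and a clear course thus coincided at this site, with a span of 1.99-fold and a fitted peak at 21.3 h ± 0.44 (adjusted p = 0.000719, edgeR). The strongest site, at +52.9 kb (113259519 to 113261269, 763 per kb), held 1687, 1212, 1178, 1282, 1260.3, 1159, 1521 and 1380.4 normalized counts from ZT0 to ZT21. Its highest libraries were also ZT0 and ZT18, but the cosine spanned 1.27-fold and did not pass (adjusted p = 0.173, edgeR; exact adjusted JTK P = 1), in 0 of the 8 fits with a library left out.

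The peak at +43.7 kb (113250674 to 113251666), with the second ROR element of the gene, held 690.4, 448, 365, 313, 342, 355, 620.1 and 646 normalized counts from ZT0 to ZT21. It was called by both tests whichever library was left out, with a span of 2.27-fold and a peak at 21.8 h ± 0.46 (adjusted p = 0.00093, edgeR; exact adjusted JTK P = 0.00595). In this peak the ROR element overlapped a DR1 match with 2 mismatches. The narrow neighbour at +42.2 kb (113249354 to 113249902) held 152, 102, 74.4, 85.7, 71.5, 107, 172 and 157 normalized counts from ZT0 to ZT21. The last of the 5, at +60.7 kb (113267660 to 113268693), held 229, 115, 85.0, 125, 136, 146, 241 and 173 from ZT0 to ZT21. Both were highest at ZT18 and were called by the cosine (adjusted p = 0.00449 and 0.0238, edgeR), the latter not without ZT6 or ZT18 (adjusted p up to 0.122, edgeR). The peaks at +42.2, +43.7 and +52.9 kb also lie within the annotated noncoding gene Gm33721.

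The 3 peaks from exon 12 on had their lowest library at ZT3 or ZT0, where the peaks before them were lowest between ZT6 and ZT15. Over exon 12, at +88.1 kb (113295145 to 113295915), binding was 113.4, 77.1, 105, 128, 118, 156, 156 and 138 normalized counts from ZT0 to ZT21. In intron 18, at +103.2 kb (113309094 to 113312185), the widest peak of the gene held 1645, 1295, 1567, 1477, 1621, 1829, 1869 and 1631 from ZT0 to ZT21. Neither passed (adjusted p = 0.0529 and 0.0676, edgeR), and both were lowest at ZT3. With library totals both passed in edgeR (adjusted p = 0.0351 and 0.0243). The peak 129.9 kb after the start (113336779 to 113337920) lies beyond the end of Arntl, within the neighbouring gene Btbd10, and held 73.5, 77.1, 77.3, 92.6, 135, 180.4, 158 and 90.9 normalized counts from ZT0 to ZT21. It was the 1 called peak of the 24 with its fitted time before ZT18, at 15.2 h ± 0.58 (span 2.48-fold, adjusted p = 0.00316, edgeR; exact adjusted JTK P = 0.026), and its cosine call held whichever library was left out. The JTK calls of Arntl were less firm: those at +7.2 and +35.0 kb ended without ZT9, that at −7.29 kb without ZT0, ZT3, ZT15, ZT18 or ZT21, and that at +129.9 kb without ZT6, ZT9, ZT15 or ZT21 (exact adjusted P = 0.161 in each). With library totals the peaks at −7.29 and +129.9 kb had an exact adjusted P of 0.0826.

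Clock, whose protein is the usual partner of BMAL1, had a single peak within its window, over the start site (76303450 to 76305906), while the gene spans 94.681 kb on the minus strand (76209868 to 76304548, 23 exons in NM_007715.6). The peak was dense, with 638 normalized counts per kb, where the 90th percentile of all peaks was 625. It held 1678, 1664, 1406, 1420.0, 1538, 1501, 1634 and 1706 normalized counts from ZT0 to ZT21. The lowest libraries were ZT6 and ZT9 and the highest ZT21 and ZT0, but the highest exceeded the lowest by only 1.21-fold. Ranked by level with the scaling of counts summed per gene, all 7 pairs adjacent in rank had overlapping 95% counting intervals. Time points further apart in rank did not all overlap. ZT3 (1569 to 1723) and ZT6 (1315 to 1457), which follow each other in time, were apart. The cosine did not pass (span 1.19-fold, or 0.26 ± 0.09 on the log2 scale, adjusted p = 0.148, edgeR; exact adjusted JTK P = 0.212). This call rested on the scaling: JTK gave an exact adjusted P of 0.026 with library totals and with cyclic loess, and edgeR gave an adjusted p of 0.0428 with cyclic loess and 0.0542 with library totals. The nearest peaks outside the window lay 49.5 kb before it and 199 kb after it, and neither passed the cosine (adjusted p = 0.385 and 0.389, edgeR). The peak also overlaps the annotated gene Gm7467.

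Npas2, which encodes the alternative partner of BMAL1, showed the largest differences over the day. The gene spans 168.969 kb on the plus strand (39194272 to 39363240, 21 exons in NM_008719.2), and all 6 peaks upstream of it or within its introns were highest at ZT0 and lowest at ZT12 or ZT15. All 6 passed the cosine, with fitted peaks between 22.6 and 23.1 h in the main fit. They also passed under every scaling and filter tried, with the DESeq2 test and whichever library was left out. JTK called 3 of the 6, and gave the other 3 an exact adjusted P of 0.0826.

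The peak over the Npas2 start site (39192309 to 39194709) held 2448, 1562, 925, 853, 838, 761, 1440.0 and 2333 normalized counts from ZT0 to ZT21. The level at lights on was 3.22 times that at ZT15, and ZT21 and ZT0 stood above the other 6 libraries. The fitted span was 3.28-fold, or 1.71 ± 0.16 on the log2 scale, with the peak at 22.9 h ± 0.35 (adjusted p = 0.000154, edgeR; exact adjusted JTK P = 0.026), and 116 of 66066 peaks had a larger amplitude. JTK called this peak in 3 of the 8 fits with a library left out, and not without ZT0, ZT3, ZT6, ZT18 or ZT21 (exact adjusted P = 0.161). The upstream neighbour at −2.8 kb (39190843 to 39192101), with a ROR element and 2 E-boxes, held 494, 259, 174, 143, 152, 131, 300.2 and 487 normalized counts from ZT0 to ZT21. Its span was 3.91-fold (1.97 ± 0.21 on the log2 scale; adjusted p = 0.000385, edgeR), exceeded by 39 peaks.

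Within the gene the steepest course was in intron 2, at +73.9 kb (39267400 to 39268861), where PPARγ binding was 706, 397, 259.8, 154, 139.9, 154, 425 and 526 normalized counts from ZT0 to ZT21. The counting intervals were 655 to 760.4 at ZT0 and 118 to 165 at ZT12. The fitted span of 5.04-fold, or 2.33 ± 0.19 on the log2 scale, peaked at 23.1 h ± 0.30 (adjusted p = 7.48e-05, edgeR; exact adjusted JTK P = 0.00595). Only 10 of the 66066 peaks had a larger fitted amplitude, and both tests called the peak whichever library was left out. It held a DR1 match with 2 mismatches, where 29.7% of peaks of like length held a DR1 match, and no exact ROR element. Whether the motifs bear on the course was not tested.

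Further into the gene 3 stronger sites followed the same course with smaller spans. In intron 3, at +94.0 kb (39287217 to 39289325), binding was 1553, 856, 744, 632, 507, 559, 989.7 and 1327 normalized counts from ZT0 to ZT21. In intron 5, at +108.5 kb (39301202 to 39304380), it was 1836, 1247, 1068, 929.6, 854, 803, 1382 and 1656 from ZT0 to ZT21. In intron 7, at +124.1 kb (39317733 to 39319072), it was 1201, 840.3, 696, 592, 567, 553, 921 and 1172 from ZT0 to ZT21. Spans were 2.75-fold, 2.15-fold and 2.23-fold (adjusted p = 0.000431, 0.00093 and 0.000553, edgeR). The intron 7 peak had the most reads per kb of the window (610.3), and like the intron 3 peak, whose JTK call (exact adjusted P = 0.026) ended without ZT0, ZT6, ZT12 or ZT21, it held both a ROR element and an E-box.

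The last 2 peaks of the window lie beyond the end of Npas2, at the ribosomal protein gene Rpl31. The first (39367367 to 39368283) held 551, 497, 481, 506, 549, 468, 577 and 539 normalized counts from ZT0 to ZT21. The second (39368588 to 39369637) held 267, 309, 234, 262, 295, 278, 302 and 304 from ZT0 to ZT21. Neither passed the cosine (spans 1.11-fold and 1.15-fold, adjusted p = 0.66 and 0.591, edgeR), and the exact adjusted JTK P was 1 for both. The raw reads of the 6 Npas2 peaks were divided by those of the 2 Rpl31 peaks within each library. A single scaling factor per library cannot move this ratio. It was 10.1, 6.40, 5.41, 4.30, 3.62, 3.97, 6.21 and 8.89 from ZT0 to ZT21. The ratio is a description only, since both sets of peaks were chosen after their counts had been seen.

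**Figure D3:**
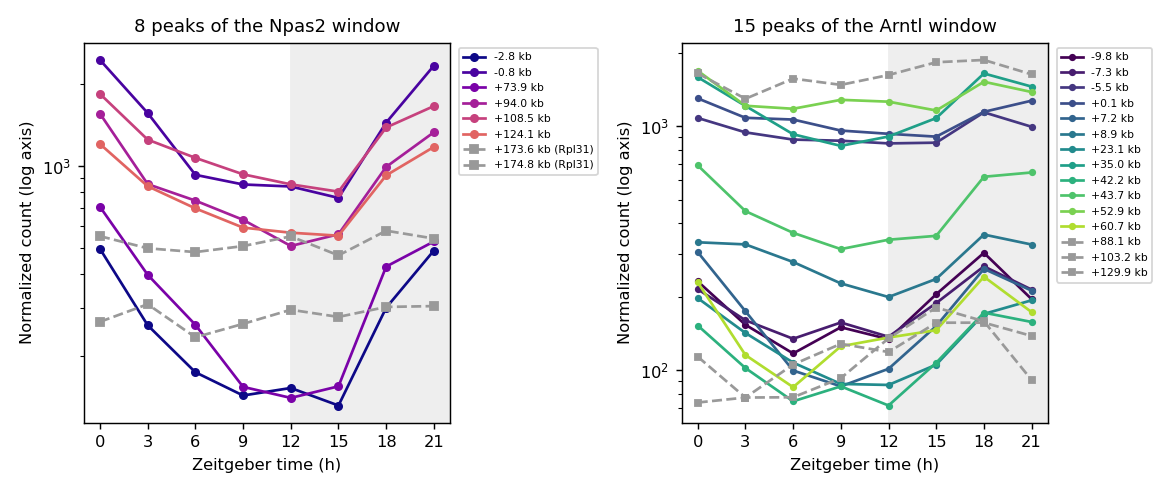
Normalized counts (log axis) against Zeitgeber time for the 8 peaks of the Npas2 window (left) and the 15 of the Arntl window (right), 1 library per point, with the dark phase shaded and peaks named by their distance from the start site. Solid lines of Npas2 run from a high at ZT0 to a low at ZT12 or ZT15, by 2.17-fold to 5.04-fold, while the dashed grey Rpl31 peaks stay between 468 and 577 and between 234 and 309. In the right panel, dashed grey lines mark the 3 Arntl peaks from exon 12 on.

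The nearest peaks outside the Npas2 window passed the cosine as well, with their highest library at ZT21. The peak 3.88 kb after its end (39393253 to 39394501) held 408, 297, 194, 201, 189, 227, 407 and 417 normalized counts from ZT0 to ZT21 (adjusted p = 0.00093, edgeR). The peak 63.9 kb before it (39105258 to 39107011) held 642, 513, 317, 229, 321, 242, 552 and 770.4 (adjusted p = 0.000991, edgeR; exact adjusted JTK P = 0.0826). The 2 Rpl31 peaks thus had peaks that passed on either side. The nearest peaks outside the Arntl window did not pass (adjusted p = 0.536 and 0.329, edgeR).

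**Figure D4:**
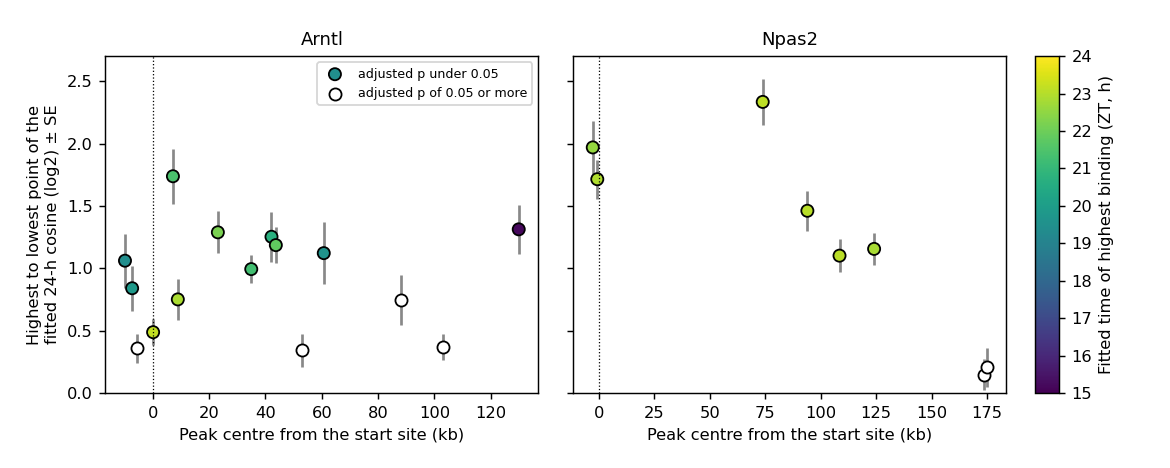
Size of the fitted 24-h cosine (log2 difference between its highest and lowest point ± SE) against the distance of the peak centre from the start site, for Arntl (left) and Npas2 (right). Colour gives the fitted time of highest binding for peaks with an adjusted p under 0.05 (edgeR), and open circles did not pass. The largest spans are at +7.2 kb for Arntl (1.74) and +73.9 kb for Npas2 (2.33), and the dark point at +129.9 kb of Arntl peaks at 15.2 h.

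Reads were then summed over the peaks of each window and compared with 16710 genes, whose peaks were summed by nearest start site. The Arntl sum was 9784, 7429, 6946, 6895, 7021, 7904, 10053 and 9021 normalized counts from ZT0 to ZT21. The Npas2 sum was 9004, 5894, 4509, 4085, 3898, 3826, 6356 and 8296 from ZT0 to ZT21. Arntl was thus highest at ZT18 and Npas2 at ZT0. For Arntl the counting intervals overlapped only between ZT18 and ZT0 and among ZT12, ZT6 and ZT9. For Npas2 they overlapped only between ZT9 and ZT12 and between ZT12 and ZT15, while ZT9 and ZT15 were apart.

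Arntl and Npas2 passed the cosine at the level of the sums and Clock did not, where 15.6% of all genes passed. For Arntl the fitted log2 amplitude was 0.28 ± 0.04 (SE) with the peak at 20.6 h ± 0.57 (adjusted p = 0.00502, edgeR; exact adjusted JTK P = 0.000744, the smallest that 8 libraries allow). For Npas2 it was 0.62 ± 0.06 with the peak at 22.8 h ± 0.36 (adjusted p = 0.000566, edgeR), and 55 of 16710 genes had a larger amplitude. With Arntl and Npas2 also summed by nearest start site, as all other genes were, the amplitudes were 0.34 and 0.91, exceeded by 1005 and 5 genes. Those sums held 12 of the 15 Arntl peaks and 3 of the 8 Npas2 peaks. The Npas2 peaks in introns 3, 5 and 7 lie nearest to the Rpl31 start site and were left out. The 3 that remained had the largest fitted amplitudes of the window. By JTK the Npas2 sum over the window did not pass (exact adjusted P = 0.0826). Without the peaks beyond the ends of the genes the amplitudes were 0.28 and 0.72. For Clock the amplitude was 0.13 (adjusted p = 0.119, edgeR), or 0.17 with library totals (adjusted p = 0.0441, edgeR).

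**Figure D5:**
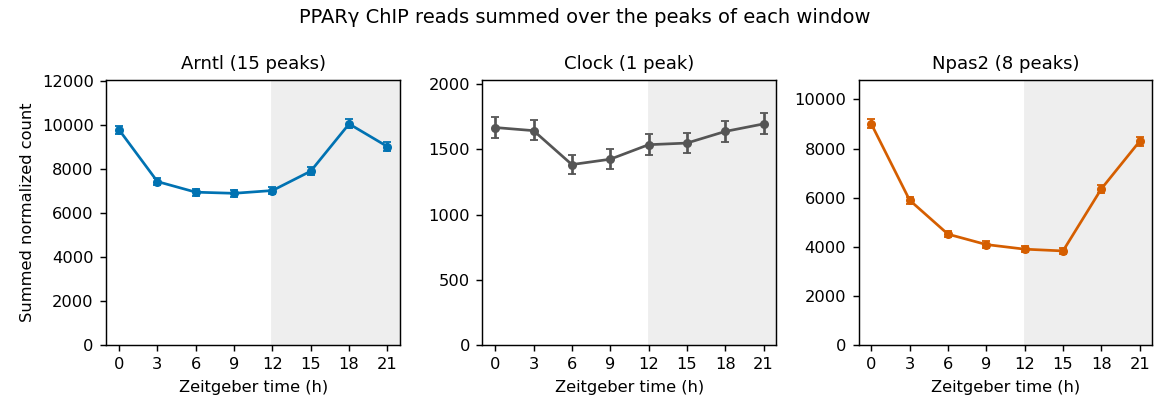
Normalized counts summed over the peaks of each window against Zeitgeber time, with 95% Wilson intervals (counting error only), 1 library per point, the dark phase shaded and each vertical axis starting at 0. Arntl is highest at ZT18 (10053) and ZT0 (9784), Npas2 at ZT0 (9004), and Clock stays between 1384 and 1696.

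The ratio of the raw reads of Npas2 to those of Arntl was taken within each library. It is a description only, since it was chosen after the counts had been seen. It was 0.92, 0.793, 0.649, 0.593, 0.555, 0.484, 0.632 and 0.92 from ZT0 to ZT21. The ratio was highest at ZT0 and ZT21 and lowest at ZT15. The ratio of Npas2 to Clock ran from 5.40 at ZT0 to 2.47 at ZT15, and that of Arntl to Clock from 6.14 at ZT18 to 4.52 at ZT3. Whether the courses of the genes differ cannot be tested on ratios chosen in this way.

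Among 10715 genes with a mean summed count of at least 500, the courses most like those of the 3 genes were found by Pearson correlation of log2 summed counts over the 8 libraries, given as a description. They were Gm36069 (r = 0.988), Mirlet7i, Zfand2a, Stxbp3 and Pi4ka for Arntl, Copg2 (0.98), Prr5, Nfatc3, Tomm34 and Kif2a for Clock, and BC051665 (0.976), Mboat1, Gzf1, Rtn4rl1 and Kcnq1 for Npas2. Among the 3 genes r was 0.798 between Arntl and Npas2, 0.768 between Arntl and Clock and 0.764 between Clock and Npas2. The genes named above were picked as the highest of 10715, so these values cannot be weighed against theirs.

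All 26 genes of a list of clock components had a peak nearest to their start site, 158 in all. The cosine called 61 of these peaks and JTK 46, against 13.4% and 11.6% of all peaks. Summed per gene, 18 of the 26 passed (edgeR, 15.6% of all genes), 13 of them with a fitted peak from ZT0 to ZT12, a class that held 56.3% of all genes called, and 5 from ZT12 to ZT24. Some of the genes that BMAL1 drives were among the former: Nr1d1 spanned 2.51-fold with its peak at 6.17 h, Ciart 2.27-fold at 10.6 h, and Dbp, a D-box activator, 1.99-fold at 7.94 h. Cry1, a repressor gene with ROR elements of its own, was the 1 gene of the 26 that passed with a peak between ZT18 and ZT24, at 20.3 h (span 1.77-fold), a class that held 16.2% of all genes called. Cry2 and Nr1d2 did not pass (adjusted p = 0.0782 and 0.166, edgeR). The Arntl, Clock and Npas2 windows were not on this list.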

How the data were processed

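PPARγ ChIP-seq libraries of pooled iBAT, 1 per time point, were analysed as 8 samples grouped by the Zeitgeber time in their labels. The deposited values are raw read counts in 66066 peaks. Per the submitters' processing notes and the methods, the authors aligned reads to mm10 with BWA 0.7.17, called peaks with MACS2 2.1.2 at an FDR of 0.05, kept those found in at least 6 of 8 libraries, counted reads with HTSeq 1.99.2 and annotated with HOMER 4.11. Peak coordinates are as deposited. A ZT12 input library was not analysed here, so no input was subtracted, and a high count can hold copy number or open chromatin. Keeping only peaks found in most libraries can miss sites bound at few hours.

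Here, counts were scaled by TMM in edgeR 4.0.16 (R 4.3.3). With no replicated time point, departures from the cosine (5 residual degrees of freedom, common dispersion 0.0116) stood in for the spread, and p-values describe these 8 pools, not animals. SEs of amplitude and phase were derived from the F statistic and are approximate. JTK-cycle was rewritten with its exact null distribution in Python 3.11.15. Both procedures were tested on simulated data. Peaks were placed on RefSeq transcripts of GRCm38.p6. Genes were summed over the 3 windows or, elsewhere, by nearest start site. Alternatives were library totals, DESeq2 1.42.0 size factors and likelihood ratio test, upper quartile, cyclic loess (limma 3.58.1), filters on low counts, other thresholds and each library left out. Every peak in the windows was described. Full values were ruled for peaks within 1 kb of a start, the 3 strongest and the flattest per gene, and called peaks, up to 8 per gene; the rest are given as well. The members and gene lists were chosen with earlier results of these data known. Leaving out the peaks beyond the gene ends, the 4 ratios and the AGTAGGT search were added after seeing the data.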

Additional observations from a re-analysis of the deposited data

How the results depend on the processing

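At the 24 peaks the 24-h cosine (edgeR) called 17, between 12 and 20 under the other settings and 13 to 17 with each library left out; all 17 kept their call under the other scalings, filters and the DESeq2 test, and 12 with every omission. JTK called 9, from 8 to 13 under other scalings, filters or a 24-h period, 6 to 13 with a library left out, and 3 at a threshold of 0.01; 3 of the 9 kept their call with every omission. Over all peaks the cosine called 8842 (3067 to 11203 with a library left out, 2243 at 0.01), with 3067 called without ZT18, 3730 without ZT15, 4280 without ZT6, 5609 without ZT9 and 5694 without ZT12, and JTK 7686 (7432 to 10802, and 3079 at 0.01). Fitted log2 amplitudes of the sums ran from 0.25 to 0.32 for Arntl, 0.11 to 0.15 for Clock and 0.57 to 0.68 for Npas2 with a library left out. Clock passed with library totals (0.17, adjusted p = 0.0441, edgeR), and the Npas2 sum did not pass by JTK (relative amplitude 0.416, exact adjusted P = 0.0826). Cyclic loess moved the ratio of highest to lowest library to 1.56 at Arntl intron 18 and 1.31 at Clock. These counts, amplitudes and ratios carry no sign, so a reversed course would not show in them. Fitted times under the other settings were not compared, and the causes were not tested. No paired analysis was possible because each time point has 1 library and the labels carry no shared replicate numbers. Whether depth limited the calls was not tested. Weak peaks held under 100 normalized counts at their lowest, and the single pool per time point limits every call.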
